A study of Mus musculus with 2 samples.

Results

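The genes examined here encode the proteasome, and they were taken as every gene symbol that begins with Psma, Psmb, Psmc, Psmd or Psme followed by a digit. The pattern found 45 of the 31053 genes listed, and 42 of them had at least 50 unique molecular identifiers (UMIs, each standing for 1 captured transcript) over both libraries in monocyte-like cells. In granulocyte-like cells 42 did as well, with Psmc3ip in the place of Psme2b. The proteasome degrades ubiquitin-tagged proteins inside a barrel, the 20S core, whose outer alpha rings gate the entry and whose inner beta rings hold the cutting subunits Psmb5, Psmb6 and Psmb7. In cells exposed to interferon gamma, and constitutively in many blood cells, these are replaced during assembly by Psmb8, Psmb9 and Psmb10, which gives the immunoproteasome and favours peptides that MHC class I can present. Caps bind the ends of the barrel: the 19S regulator unfolds ubiquitin-tagged proteins with its Psmc ATPases, PA28 (Psme1 and Psme2, or Psme3) opens the gate without ubiquitin, and PA200 (Psme4) acts mainly in the nucleus.

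Bone marrow was taken from F1 hybrid mice of C57BL/6 and Balb/c parents. Radiation control (RC) mice received 300 rads, and mice with severe aplastic anemia (SAA) received the same 300 rads and 65000000 B6 splenocytes. The comparison therefore asks how the marrow cells differ when splenocytes of a parental strain follow the radiation. Ages are not given in the labels. Live CD11b+Ly6C+Ly6G- cells were sorted, which was done without a marker that separates host from donor cells, and each condition has 1 library, made from the pooled cells of 3 mice. There are no replicates, so no test between RC and SAA was possible, every value below describes these 2 libraries, and every interval is a 95% interval that covers counting error only and not the spread between mice.

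Barcodes with at least 1000 detected genes were retained, 662 in RC and 729 in SAA. A barcode was called monocyte-like where the UMIs of Csf1r, Ccr2, F13a1, Ms4a6c and Ly86 together exceeded those of Camp, Ngp, Fcnb, Cebpe, Elane, Mpo, Prtn3 and Ctsg, and granulocyte-like in the opposite case. This gave 342 RC and 285 SAA monocyte-like cells and 318 RC and 421 SAA granulocyte-like cells, and left 2 RC and 23 SAA barcodes tied. The depths differed most in monocyte-like cells, where the RC cells had a median of 3347.5 UMIs and the SAA cells 6082, against 6787.5 and 6849 in granulocyte-like cells. UMIs were summed over the cells of a class and scaled to 1000000 (CPM), which removes differences in depth, and the ratio of CPM is given as SAA to RC. In the sums, fewer cells that express a gene and less RNA per cell cannot be told apart. The files share 1 barcode.

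The labelled sort was checked against markers that the classes did not use. All 6 of the further monocyte genes (Ly6c2, Fn1, Cd14, Irf8, Klf4 and Lgals3) were detected in monocyte-like cells of both libraries and summed to 7281 CPM in RC and 6530 in SAA. Single genes differed far more than this sum, with Fn1 at 2512 and 296 CPM, Lgals3 at 1934 and 1161 CPM and Ly6c2 at 2356 and 4725 CPM, so the monocyte-like cells of the libraries differed in their own markers. The granulocyte genes Ltf, Lcn2, S100a8, S100a9, Chil3, Ly6g and Gfi1 summed to 221078 CPM in RC and 188089 in SAA granulocyte-like cells. In monocyte-like cells the same list summed to 2035 CPM in RC and 13360 in SAA, with Ly6g at 0 UMIs in RC and 8 in SAA, while the granulocyte genes of the rule summed to 373 and 558 CPM. T and NK cell genes (9 genes) had 6 UMIs in RC and 224 in SAA monocyte-like cells, and 6 of the 9 were at 0 in RC. In granulocyte-like cells they had 1016 and 1107 UMIs, of which Nkg7 held 981 and 784, and 7 of the 9 were at 0 in RC. Erythroid, B and basophil or mast cell lists stayed at or under 164 CPM in both classes. The macrophage genes C1qa, C1qb and Vcam1 summed to 2.21 CPM in RC and 102 in SAA monocyte-like cells, and to 108 and 29.3 CPM in granulocyte-like cells. The part of these other cells in the values below was not tested, apart from the values without barcodes holding T or NK cell UMIs that are given with them.

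Some of the subunit genes lie close together in the genome. Psmb8 (chr17:34197721-34201454, plus strand) and Psmb9 (chr17:34181987-34187764, minus strand) flank Tap1 in the MHC region, and the RefSeq starts of Psmb9 and Tap1 point away from each other with 225 bases between them. Psme1 (chr14:55578123-55581529, plus strand) and Psme2 (chr14:55587441-55591113, minus strand) lie near each other, and genes between them were not looked up. Psmb10 (chr8:105935735-105938444, minus strand), Psmb5 (chr14:54614119-54618022, minus strand), Psmb6 (chr11:70525367-70527858, plus strand) and Psmb7 (chr2:38588036-38644087, minus strand) lie apart from them. Positions are those of GENCODE vM21 on GRCm38, the same assembly as the mm10 named in the submitters' notes, and all 45 identifiers matched.

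Short motifs were searched on both strands in RefSeq windows of GRCm38.p6 that run from 250 bases before to 50 bases after a gene's start, which exist for 38 of the 45 genes. Psmb7 is among the genes without a window, so it was not searched. The letters TTCNNNGAA, the form of an element found in genes that interferon gamma induces, were found in 8.30% of all 32851 windows and in those of Psmb8 and Psmd2. The letters GAAA repeated after a gap of any 2 bases, the form of an interferon-stimulated response element, were found in 3.44% of all windows and in those of Psmb3, Psmd4, Psmd9 and Psme1. The letters TGACNNNGC, the form bound by NRF1 and NRF2 (Nfe2l1 and Nfe2l2), were found in 12.4% of all windows and in those of Psmb5, Psmb6, Psmc6, Psmd9, Psmd12 and Psme4. The stretches of 30 bases around the matches of 4 subunits are shown, picked from the matches above as genes that the comparison turns on. They are written 5′ to 3′ on the strand of the gene, with the match in capitals. Psmb9, Psmb10 and Psme2 are not among the genes with any of these matches. The letters TTCNNNGAA were in 2 of the 38 windows of the pattern, beside 8.30% of all windows. Whether a match goes with a higher level in SAA was not tested. A match is a description of the letters and not a site of binding.
Psmb8, chr17:34198088-34198117, plus strand: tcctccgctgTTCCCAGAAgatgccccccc
Psme1, chr14:55578493-55578522, plus strand: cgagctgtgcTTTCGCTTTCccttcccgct
Psmb5, chr14:54618023-54618052, minus strand: cgtgaagttgTGACGTCGCggcgttgccag
Psmb6, chr11:70525338-70525367, plus strand: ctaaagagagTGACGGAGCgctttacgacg
Distances are counted from the RefSeq start of each window, which need not be the outermost GENCODE position given above. For Psmb8 this start is base 34198195 and for Psme1 base 55578494, so both of these stretches lie within the GENCODE extent of their genes. The match of Psmb8 begins 97 bases before its RefSeq start, and that of Psme1, on the other strand, at base 10 counted from it. The matches of Psmb5 and Psmb6 begin 47 and 9 bases before their RefSeq starts (bases 54617995 and 70525357).

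In monocyte-like cells the immunoproteasome subunits were 3.05 to 3.99 times as high in SAA as in RC, while the constitutive subunits they replace were 1.12 to 1.73 times as high. Psmb8, the chymotrypsin-like subunit of the immunoproteasome, stood at 241 CPM in RC and 745 in SAA (ratio 3.09, interval 2.74 to 3.49). Psmb9, which takes the caspase-like place, stood at 186 and 743 CPM (ratio 3.99, 3.49 to 4.58). Psmb10, which takes the trypsin-like place, stood at 133 and 404 CPM (ratio 3.05, 2.59 to 3.6). All 3 intervals lie well above 1. Of their constitutive counterparts, Psmb5 stood at 232 and 263 CPM (ratio 1.14, 0.986 to 1.31) and Psmb6 at 170.1 and 191 CPM (ratio 1.12, 0.953 to 1.33), so that neither difference exceeded its counting error. Psmb7 was the exception, with 77.3 and 134 CPM (ratio 1.73, 1.37 to 2.19). The summed level of the immunoproteasome subunits was 560.2 CPM in RC and 1892 in SAA (ratio 3.38, 3.12 to 3.66), and that of the constitutive subunits was 479 and 588 CPM (ratio 1.23, 1.11 to 1.35). Without barcodes holding at least 3 UMIs of the T and NK cell list the log2 ratio of the immunoproteasome sum was 1.77, against 1.76 with them.

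In granulocyte-like cells the same 3 subunits were 4.19 to 6.09 times as high in SAA. Psmb8 stood at 91.1 CPM in RC and 382 in SAA (ratio 4.19, 3.64 to 4.85), and Psmb9 at 126 and 555 CPM (ratio 4.41, 3.91 to 4.99). Psmb10 was the scarcest of the 3 in RC, with 76 UMIs in 318 cells or 30.6 CPM, and stood at 187 CPM in SAA (ratio 6.09, 4.79 to 7.84). The constitutive Psmb5 stood at 152 and 160.5 CPM (ratio 1.06, 0.926 to 1.21) and Psmb6 at 102 and 108 CPM (ratio 1.06, 0.901 to 1.25), and again only the interval of Psmb7 lay above 1 (63.3 and 100.4 CPM, ratio 1.59, 1.31 to 1.93). Summed, the immunoproteasome subunits were at 248 CPM in RC and 1123 in SAA (ratio 4.54, 4.17 to 4.95). The constitutive sum was at 317 and 369 CPM (ratio 1.16, 1.06 to 1.28). Its direction turned after all cells were thinned to 2600 UMIs in 1 random draw (log2 ratio -0.049) and in non-cycling cells (log2 ratio -0.62). With cells weighted equally its log2 ratio was 0.220, the same as without weights. As the alternatives disagreed, no direction is given for it. No more than 5.26% of the UMIs of any of these genes or of Psme1 and Psme2 in a class of a library came from 1 cell.

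**Figure D1:**
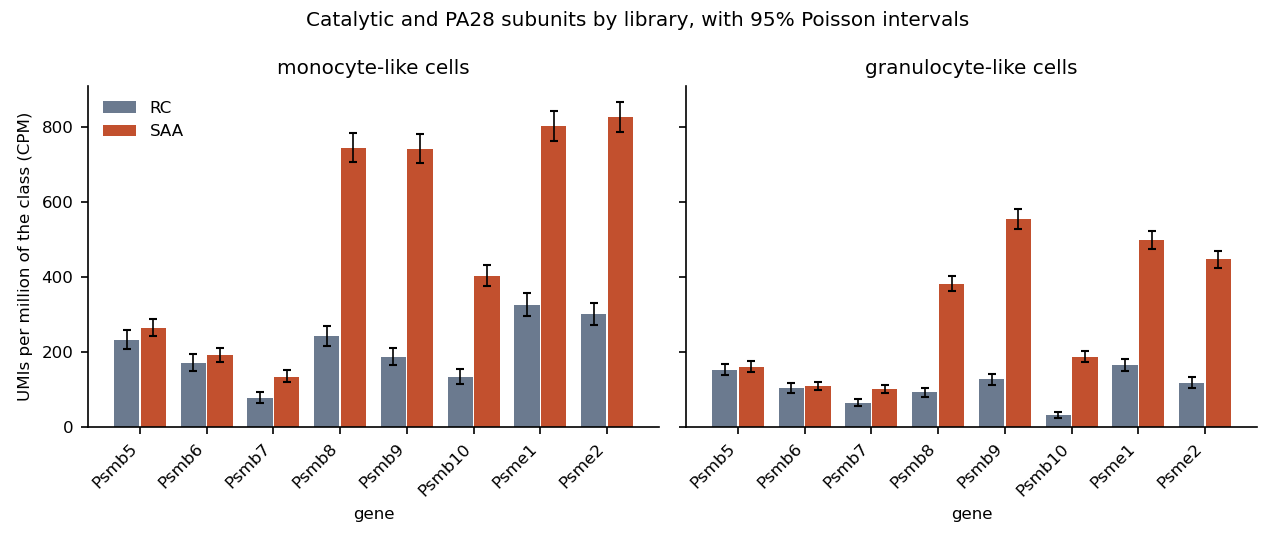
Level of the constitutive (Psmb5 to Psmb7), immunoproteasome (Psmb8 to Psmb10) and PA28 (Psme1, Psme2) subunit genes in UMIs per 1000000 (CPM, linear axis from 0) for the RC and SAA libraries in monocyte-like (left) and granulocyte-like (right) cells, with exact 95% Poisson intervals as error bars. The SAA bars of Psmb8, Psmb9, Psmb10, Psme1 and Psme2 stand 2.47 to 6.09 times as high as the RC bars, while those of Psmb5 and Psmb6 stand within 1.14 times.

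The share of immunoproteasome UMIs among all 6 catalytic subunits is a ratio within 1 library and so does not depend on how the library is scaled. The 5′ libraries count transcript ends, so no correction for gene length was needed, but genes may still be captured unequally and the share should be read between libraries rather than as a protein ratio. In monocyte-like cells the share was 53.9% in RC (761 of 1412 UMIs, exact Clopper-Pearson interval 51.3 to 56.5%) and 76.3% in SAA (3838 of 5031 UMIs, 75.1 to 77.5%), which is 22.4 percentage points higher (Newcombe interval 19.5 to 25.2). In granulocyte-like cells it was 43.9% in RC (614 of 1400 UMIs, 41.2 to 46.5%) and 75.3% in SAA (3725 of 4949 UMIs, 74.0 to 76.5%), which is 31.4 points higher (28.5 to 34.2). The RC shares of the classes lay apart, beyond their intervals, and the SAA shares overlapped.

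The pairs behaved unequally in RC. Psmb8 made up 51.0% of the UMIs of Psmb8 and Psmb5 in RC monocyte-like cells and 37.5% in RC granulocyte-like cells, and 73.9% and 70.4% in SAA. Psmb9 made up 52.3% and 55.2% of the UMIs of Psmb9 and Psmb6 in RC, and 79.5% and 83.7% in SAA. Psmb10 made up 63.2% of the UMIs of Psmb10 and Psmb7 in RC monocyte-like cells but 32.6% in RC granulocyte-like cells, and 75.1% and 65.0% in SAA. The smallest difference of a pair was therefore that of Psmb10 and Psmb7 in monocyte-like cells, 12.0 points (5.97 to 18.2), where both partners were higher in SAA. The largest was that of Psmb8 and Psmb5 in granulocyte-like cells, 32.9 points (28.4 to 37.2), whose interval overlaps that of Psmb10 and Psmb7 in the same cells (32.4 points, 25.4 to 38.8).

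The share was also taken within cell states, since more monocyte-like cells were cycling in SAA. Cells were called cycling if thinning to 2600 UMIs left them 3 or more UMIs from a list of 18 proliferation genes. Among monocyte-like cells 35.3% met this in RC and 55.8% in SAA, and among granulocyte-like cells 88.3% and 90.8%. The cells nearest the limit, with 2 or 3 such UMIs, numbered 6 in RC and 23 in SAA monocyte-like cells. In cycling monocyte-like cells the share was 52.4% in RC and 75.5% in SAA, and in non-cycling ones 54.8% and 77.8%. The difference was thus 23.0 and 23.1 points, close to that of all monocyte-like cells. In cycling granulocyte-like cells it was 43.8% and 75%, and in the 37 RC and 38 SAA non-cycling ones 43.5% and 83.2%.

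Granulocyte-like cells were split again into early cells, with more UMIs of the primary granule genes Elane, Mpo, Prtn3 and Ctsg than of Camp, Ngp and Fcnb, and late cells. The share was 43.9% in the 51 early and 43.8% in the 267 late cells of RC, and 70.5% (67.5 to 73.3%) in the 32 early and 76.4% (75.1 to 77.7%) in the 389 late cells of SAA. Among the 6 catalytic and the PA28 alpha and beta genes, Psmb10 differed most between these stages in RC. It stood there at 82.1 CPM in early cells (47 UMIs) and at 15.2 CPM in late cells (29 UMIs), and in SAA at 256 and 176 CPM, so its ratio was 3.12 (2.21 to 4.47) in early and 11.5 (7.94 to 17.4) in late cells. In SAA other genes were further apart, such as Psmb5 with 295 CPM in early and 139 in late cells. Its share of the UMIs of Psmb10 and Psmb7 was 47.0% in early and 21.8% in late cells of RC, but 64.8% and 65.1% in SAA. Psmb9 showed no such gap, with ratios of 4.58 in early and 4.45 in late cells.

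**Figure D2:**
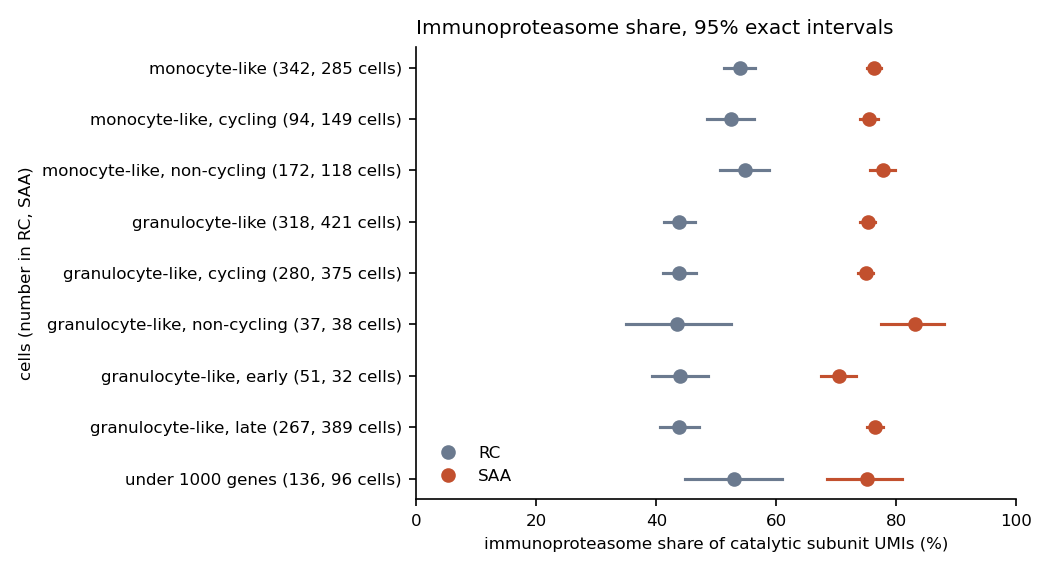
Share of Psmb8, Psmb9 and Psmb10 among the UMIs of the 6 catalytic subunits (%, horizontal axis) in RC and SAA for each class of cells and each state within it, with exact Clopper-Pearson 95% intervals as lines and the number of cells in RC and SAA in brackets. The last row holds barcodes with under 1000 detected genes. The RC values lie between 43.5% and 54.8% and the SAA values between 70.5% and 83.2%, and the intervals of the libraries are apart in every row.

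To see whether the sums came from a few cells, each cell was thinned to 2600 UMIs, which left out 76 RC and 18 SAA monocyte-like and 1 RC and 8 SAA granulocyte-like cells. At this equal depth the median monocyte-like cell held 1 UMI of Psmb8, Psmb9 and Psmb10 together in RC (quartiles 1 and 2) and 5 in SAA (3 and 6). At least 1 such UMI was found in 76.7% of 266 RC cells and in 98.9% of 267 SAA cells, and in 81.0% and 99.6% before thinning. The constitutive subunits were found in 71.1% and 74.5% of the thinned cells, with overlapping intervals, and in 81.3% and 91.9% before thinning. More immunoproteasome than constitutive UMIs were held by 96 of the 266 RC cells (36.1%) and by 224 of the 267 SAA cells (83.9%).

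Granulocyte-like cells differed in the same way at equal depth. The median was 0 immunoproteasome UMIs in RC and 3 in SAA, and at least 1 was found in 41.3% of 317 RC cells and 91.3% of 413 SAA cells, against 75.8% and 99.0% before thinning. The constitutive subunits were found in 56.2% and 51.6%, and in 84.0% and 82.0% before thinning. More immunoproteasome than constitutive UMIs were held by 71 RC cells (22.4%) and 310 SAA cells (75.1%). Proteasome genes are expressed in all cells, so no class lacks them and the background from free RNA could not be measured.

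**Figure D3:**
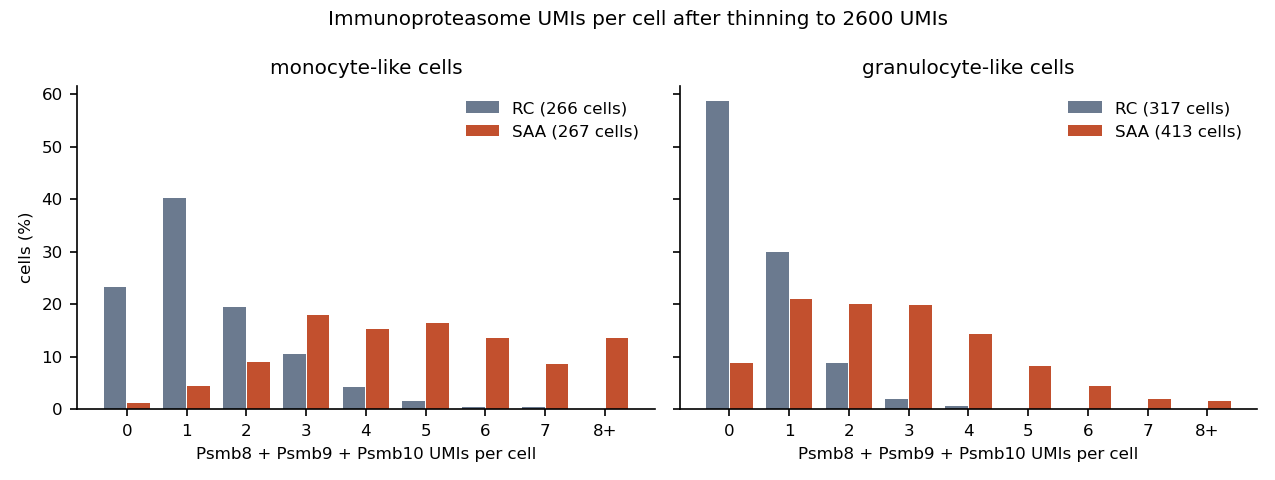
Percentage of cells (vertical axis) with each number of Psmb8, Psmb9 and Psmb10 UMIs together (horizontal axis, 8 or more in the last bin) after thinning every cell to 2600 UMIs, for RC and SAA in monocyte-like (left) and granulocyte-like (right) cells. The RC cells gather at 0 and 1 UMIs, with medians of 1 and 0, and the SAA cells spread around medians of 5 and 3.

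PA28 alpha and beta (Psme1 and Psme2), which form the cap that interferon gamma induces together with the immunoproteasome, were higher in SAA in both classes. Psme1 stood at 325 CPM in RC and 803 in SAA monocyte-like cells (ratio 2.47, 2.23 to 2.75) and at 164 and 498 CPM in granulocyte-like cells (ratio 3.03, 2.72 to 3.39). Psme2 stood at 300.4 and 827 CPM (ratio 2.75, 2.47 to 3.07) and at 117 and 447 CPM (ratio 3.81, 3.36 to 4.33). In SAA monocyte-like cells these were the highest of all 45 genes, ahead of Psmb8 and Psmb9, although the intervals of Psme1, Psmb8 and Psmb9 overlap, whereas in RC the alpha ring subunit Psma7 led with 700.1 CPM. In SAA granulocyte-like cells Psmb9 was highest, followed by Psme1 and Psme2, and in RC Psma2 (186 CPM) and Psma7 (171 CPM), whose intervals overlap.

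The other caps differed less or not at all. Psme3, which forms the nuclear PA28 gamma, was at 44.9 CPM in RC and 72.0 in SAA monocyte-like cells (ratio 1.60, 1.18 to 2.20) and at 51.6 and 75.1 CPM in granulocyte-like cells (ratio 1.45, 1.17 to 1.82). Psme4, which forms PA200, was at 81.0 and 62.6 CPM in monocyte-like cells (ratio 0.773, 0.594 to 1.01) and at 42.3 and 55.5 CPM in granulocyte-like cells (ratio 1.31, 1.03 to 1.68). The first of these intervals includes 1, so no difference could be told from counting error. Psme2b is an intronless copy of Psme2 with 16 and 44 UMIs in monocyte-like and 4 and 26 in granulocyte-like cells of RC and SAA. Of the runs of 25 bases in its transcript, 79.5% also occur in Psme2, so reads may be split between them and its values are uncertain.

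The structural subunits of the core had summed ratios below 1.3 in both classes. The 7 alpha ring subunits and Psmb1 to Psmb4 summed to 2808 CPM in RC and 3492 in SAA monocyte-like cells (ratio 1.24, 1.20 to 1.29) and to 1388 and 1796 CPM in granulocyte-like cells (ratio 1.29, 1.24 to 1.35). In the 37 RC and 38 SAA non-cycling granulocyte-like cells the direction turned (1459 and 1189 CPM, ratio 0.815, 0.680 to 0.974). Of these 11 genes, 4 were at least 1.5-fold higher in SAA monocyte-like cells, where 14.4% of all 6603 genes with at least 50 UMIs were. In granulocyte-like cells 2 of the 11 were, where 12.9% of 7154 genes were. The largest ratio was that of Psma5 in monocyte-like cells (177 and 362 CPM, ratio 2.04, 1.76 to 2.37) and that of Psmb4 in granulocyte-like cells (125 and 231 CPM, ratio 1.85, 1.62 to 2.12). Both passed 1.5-fold in both classes, but the log2 ratio of Psmb4 was 0.111 in non-cycling granulocyte-like cells, against 0.888 in all.

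The remaining structural subunits split by gene. Psma2, Psmb1 and Psmb3 had ratios from 0.991 to 1.03 in monocyte-like cells with intervals that include 1, and the sign of Psmb1 and Psmb3 turned under other scalings. Within states of these cells the log2 ratio of Psma2 was -0.149 in cycling and 0.405 in non-cycling cells. That of Psmb3 was -0.291 in non-cycling cells. Psma7 had a ratio of 1.03 (0.949 to 1.12) in monocyte-like and of 1.46 (1.30 to 1.65) in granulocyte-like cells, where its log2 ratio of 0.548 became 0.239 in thinned and -0.063 in non-cycling cells. Psma3 and Psma4 passed 1.5-fold in monocyte-like cells (ratios 1.51 and 1.72) and stood at 1.23 and 1.26 in granulocyte-like cells. Whether these ratios differ between the classes was not tested.

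The 19S regulator had a higher summed level in SAA in both classes. The 6 ATPases Psmc1 to Psmc6, which form the ring that unfolds substrates, summed to 347 CPM in RC and 576 in SAA monocyte-like cells (ratio 1.66, 1.49 to 1.85) and to 279 and 487 CPM in granulocyte-like cells (ratio 1.75, 1.60 to 1.91). All 6 had intervals above 1 in both classes, with ratios from 1.44 to 1.83 and from 1.49 to 2.01. The share of all genes with intervals above 1 was not computed, so this count has no background beside it. Of the 6, 4 and 5 passed 1.5-fold, against 14.4% and 12.9% of all genes. In cycling monocyte-like cells the direction of Psmc2 and Psmc4 turned (log2 ratios -0.094 and -0.170). Psmc3 had the most UMIs of them, with 92.8 and 170.1 CPM in monocyte-like cells (ratio 1.83, 1.49 to 2.27) and 83.9 and 162 CPM in granulocyte-like cells (ratio 1.93, 1.64 to 2.27).

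The 11 non-ATPase subunits summed to 841 and 1201 CPM in monocyte-like cells (ratio 1.43, 1.33 to 1.53) and to 623 and 802 CPM in granulocyte-like cells (ratio 1.29, 1.21 to 1.37). Of these, 4 (Psmd1, Psmd2, Psmd6 and Psmd13) passed 1.5-fold in monocyte-like cells and 2 (Psmd7 and Psmd13) in granulocyte-like cells, where 14.4% and 12.9% of all genes did. Psmd1, the large scaffold of the base, stood at 74.4 and 126 CPM in monocyte-like cells (ratio 1.69, 1.34 to 2.15). Psmd14, the deubiquitinase that removes the tag before degradation, had a ratio of 1.45 (1.14 to 1.84) in monocyte-like cells but of 1 (0.830 to 1.21) in granulocyte-like cells, at 81.5 and 81.4 CPM. In monocyte-like cells the log2 ratio of Psmd14 was 0.122 in cycling and 0.898 in non-cycling cells. That of Psmd13 was 0.211 and 1.04, and that of Psmd6 was 0.308 in non-cycling cells. Psmd4, a ubiquitin receptor, had ratios of 1.16 (0.910 to 1.48) and 1.48 (1.18 to 1.87).

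The assembly chaperones Psmd5, Psmd9 and Psmd10 leave the 19S before it is complete. Their sum had a ratio of 1.03 (0.829 to 1.29) in monocyte-like and of 1.38 (1.16 to 1.64) in granulocyte-like cells, and of the 3 only Psmd5 in granulocyte-like cells passed 1.5-fold (36.7 and 60.0 CPM, ratio 1.64, 1.27 to 2.12). The log2 ratio of all Psmc and Psmd subunits summed was 0.545 in monocyte-like cells, and it was 0.34 in cycling and 0.66 in non-cycling ones. In granulocyte-like cells it was 0.51, and 0.03 in the few non-cycling cells.

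**Figure D4:**
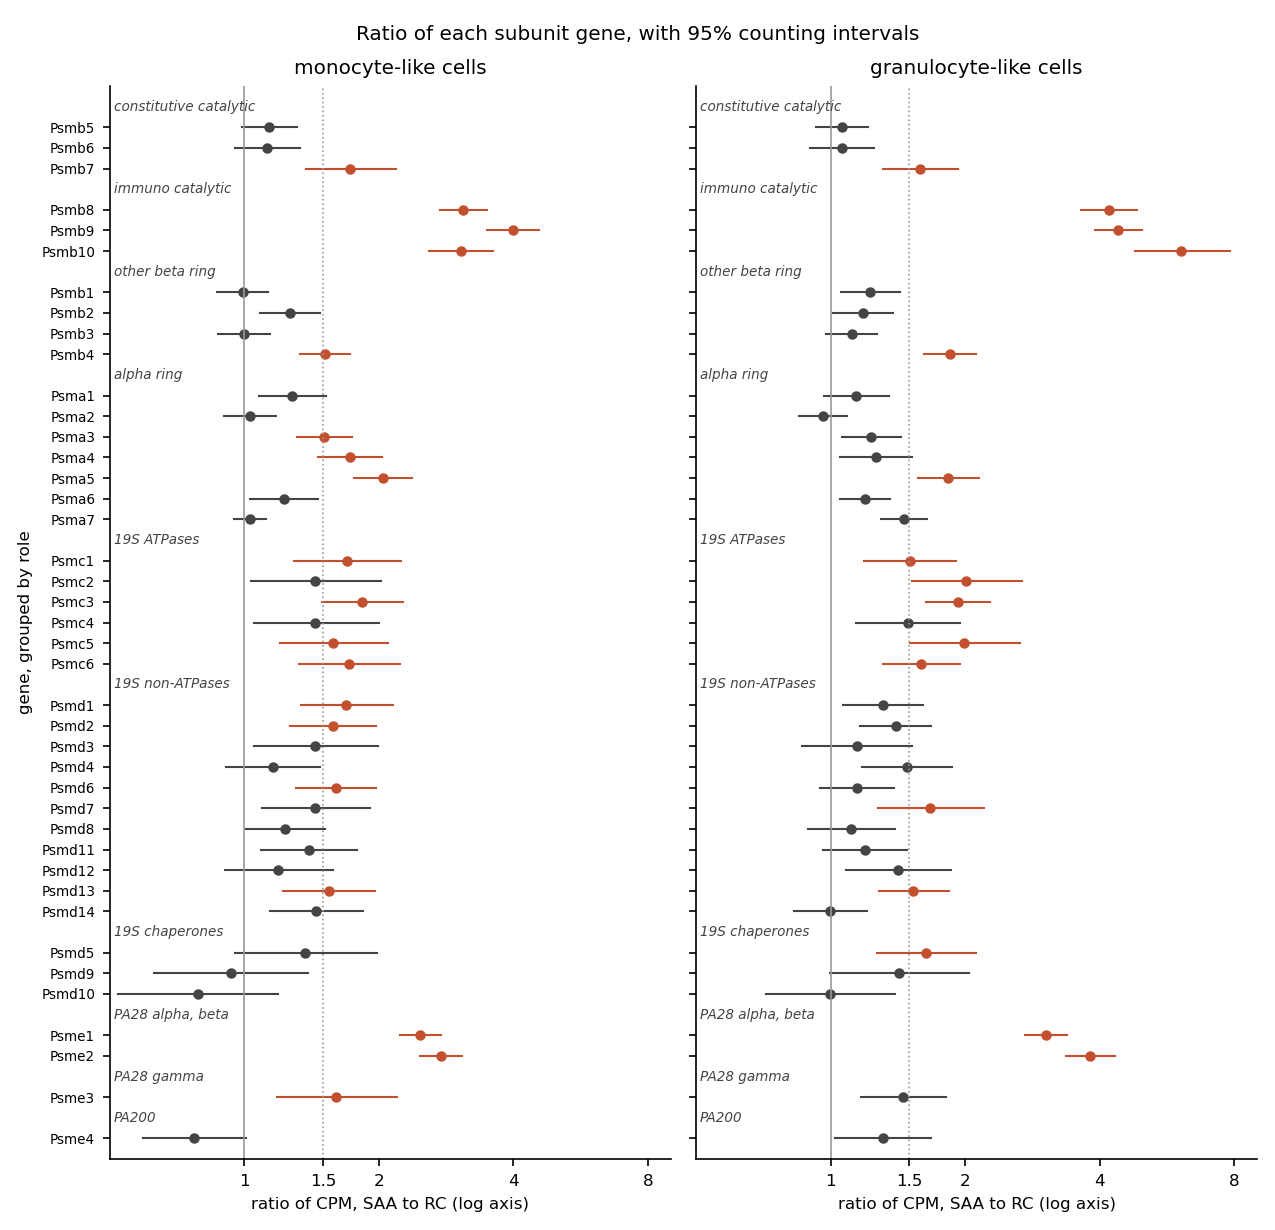
Ratio of CPM, SAA to RC (horizontal log axis), of each subunit gene with at least 50 UMIs in monocyte-like (left) and granulocyte-like (right) cells, grouped by role, with exact conditional 95% intervals as lines. The solid vertical line marks 1 and the dotted line 1.5, and genes at or above 1.5 are red. Psmc3ip and Psme2b are not drawn. Psmb8, Psmb9, Psmb10, Psme1 and Psme2 have the largest ratios, at 2.47 to 6.09, and the other subunits drawn lie between 0.773 and 2.04. In monocyte-like cells the intervals of Psme1 (2.23 to 2.75) and Psma5 (1.76 to 2.37) overlap.

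Over all genes of the pattern, 20 of the 42 with enough UMIs were at least 1.5-fold higher and 0 at least 1.5-fold lower in SAA monocyte-like cells, where the shares of all genes were 14.4% and 17.0%. Their median log2 ratio was 0.53, against -0.05 for all genes. In granulocyte-like cells 16 of 42 were higher and 1 lower, against 12.9% and 8.79% of all genes, with a median log2 ratio of 0.505 against 0.07. The 1 lower gene, Psmc3ip (22.6 and 14.5 CPM, ratio 0.641, 0.427 to 0.960), only matches the pattern by name: it encodes a partner of meiotic recombinases and no proteasome subunit. Without the 3 immunoproteasome and the PA28 alpha and beta genes, 15 and 11 of 37 were at least 1.5-fold higher, with medians of 0.53 and 0.39. In cycling monocyte-like cells 11 of 41 genes with enough UMIs were at least 1.5-fold higher. The share of all genes was not computed in cycling cells, so this count has no background beside it. TMM scaling, which estimates a common shift between libraries from most genes, added 0.10 to the log2 ratio of every gene in monocyte-like cells. Psma8, Psmb11 and Psmc3ip in monocyte-like and Psma8, Psmb11 and Psme2b in granulocyte-like cells had under 50 UMIs. Psmb11, the thymus subunit, was at 0 UMIs and Psma8, the testis subunit, at 5 or fewer in each library and class.

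Within each library the classes also differed. Here the scale matters, since S100a8 took 117449 CPM and S100a9 89638 CPM in RC granulocyte-like cells, and 99814 and 70688 CPM in SAA, and such levels lower the CPM of every other gene there. In RC the immunoproteasome sum was 2.26 times as high in monocyte-like as in granulocyte-like cells (2.03 to 2.52), the constitutive sum 1.51 times (1.36 to 1.68), the PA28 alpha and beta sum 2.22 times (2.01 to 2.46), the structural core 2.02 times (1.93 to 2.12) and the 19S regulator 1.32 times (1.24 to 1.41). In SAA these were 1.68 (1.61 to 1.76), 1.59 (1.47 to 1.73), 1.73 (1.64 to 1.81), 1.94 (1.88 to 2.01) and 1.38 (1.32 to 1.44). The intervals did not overlap between libraries for the immunoproteasome and PA28 sums and did for the other 3. Psma7 and Psmb10 were the most unequal in RC among the genes compared this way, at 4.09 (3.64 to 4.59) and 4.32 (3.29 to 5.73) times as high in monocyte-like cells.

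The genes that supply and control the proteasome were taken from lists of its assembly factors, partners, regulators and the peptide loading machinery. The peptide loading genes, which carry proteasome products onto MHC class I, were mostly higher in SAA, with 9 of 9 at least 1.5-fold higher in monocyte-like and 7 of 9 in granulocyte-like cells, beside 14.4% and 12.9% of all genes. Tap1, the peptide transporter that shares its start region with Psmb9, was at 58.9 and 376 CPM in monocyte-like cells (ratio 6.39, 5.07 to 8.15) and at 33.9 and 250.03 CPM in granulocyte-like cells (ratio 7.38, 5.89 to 9.35). B2m, the light chain of MHC class I, was at 1284 and 3301 CPM (ratio 2.57, 2.44 to 2.71) and at 592 and 2786 CPM (ratio 4.70, 4.45 to 4.97). The folding chaperones Calr and Canx were the 2 that stayed under 1.5-fold in granulocyte-like cells, at 1.33 and 1.30, and had ratios of 4.78 and 1.70 in monocyte-like cells.

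The regulators differed unequally. Irf1, a transcription factor of the interferon gamma response, had ratios of 6.45 (4.84 to 8.76) in monocyte-like and 7.66 (5.46 to 11.0) in granulocyte-like cells. Nlrc5, the MHC class I transactivator, had 15 and 112 UMIs in monocyte-like cells (ratio 5, 2.91 to 9.23) and 4 and 152 UMIs in granulocyte-like cells (ratio 28.4, 10.9 to 106). Nfe2l1, whose product raises proteasome subunit genes when proteasome activity is short, had ratios of 1.29 (0.937 to 1.80) and 1.52 (1.10 to 2.13). Ddi2, the protease that activates the Nfe2l1 product, had ratios of 1.26 (1.04 to 1.52) and 2.70 (2.07 to 3.58). Nfe2l2 did not differ beyond counting error, with ratios of 0.964 (0.756 to 1.23) and 0.957 (0.791 to 1.16).

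The 5 assembly factors of the core were all under 1.5-fold in both classes, where 14.4% and 12.9% of all genes were at least 1.5-fold higher. Pomp, which brings the beta subunits together, had ratios of 1.44 (1.31 to 1.58) and 1.43 (1.27 to 1.61). Psmg1 had ratios of 1.497 (0.825 to 2.83) and 0.690 (0.478 to 0.996) at 17 to 65 UMIs per library and class. Of the 8 proteasome partners measured, 1 was at least 1.5-fold higher in monocyte-like and 3 in granulocyte-like cells, beside 14.4% and 12.9% of all genes. Psmf1, an inhibitor of the core, was among them in both classes (ratios 2.01 and 1.90), at 13 to 61 UMIs. The ubiquitin genes Ubb and Rps27a were lower in SAA. Ubb had ratios of 0.739 (0.685 to 0.796) and 0.781 (0.730 to 0.835) and Rps27a of 0.793 (0.769 to 0.819) and 0.903 (0.877 to 0.929). Neither passed 1.5-fold in either direction.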

How the data were processed

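The deposited files hold unnormalized UMI counts of each gene in each barcode from 10x 5′ libraries. Per the submitters' processing notes the authors used Cell Ranger 6.0.1 and the build mm10. The authors' cell filter (at least 1000 detected genes, at most 25% mitochondrial RNA) was applied, of which the mitochondrial limit removed no further barcode. Counts were summed per library and class in Python 3.11.15 (pandas 2.3.3, numpy 2.4.6), intervals came from scipy 1.17.1 and figures from matplotlib 3.10.9. CPM carry exact Poisson, ratios exact conditional binomial and shares exact Clopper-Pearson 95% intervals. Only the coverage of the ratio intervals was tested, on simulated Poisson counts. Such counts follow the model of the interval, so the test does not cover the spread between cells or mice. The libraries held 4066589 UMIs (RC) and 5592265 UMIs (SAA) over all barcodes. A gene counted as higher or lower at 1.5-fold among genes with at least 50 UMIs over both libraries in the class. Thinning used seed 42. Doublets were not called, and an alternative kept only barcodes whose larger marker sum was at least 80% of both sums.

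The members, gene lists, markers and alternatives were chosen with earlier results of these data known. Named genes are all those of the pattern and, from each other list, the 4 with the most UMIs or those at least 1.5-fold apart. The early and late values of Psmb10 and Psmb9 were singled out after their values were seen. Alternatives changed the filter, class purity, cell state, depth, weights and UMI minimum, or scaled by the TMM factors of edgeR 4.0.16 (R 4.3.3) or by the median of ratios. Gene positions come from GENCODE vM21, windows from RefSeq. Protein sequences were not used here, and some genes of the pathway lists are not reported here.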

Additional observations from a re-analysis of the deposited data

Results flagged for a closer look

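Among barcodes with under 1000 detected genes, which the comparisons leave out, the immunoproteasome made up 52.9% of catalytic subunit UMIs in RC (136 barcodes, 82 of 155 UMIs, 44.7 to 61.0%) and 75.1% in SAA (96 barcodes, 145 of 193 UMIs, 68.4 to 81.1%). The SAA value lies above that of the control library in cells outside the main measurement. Of these barcodes, those with more monocyte than granulocyte marker UMIs held 57.9% in RC and 79.5% in SAA, and those with more granulocyte marker UMIs 36.7% and 71.3%.

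The 23 SAA barcodes with equal marker sums had an immunoproteasome share of 64.6% (104 of 161 UMIs, 56.7 to 72.0%), above the 1 of 4 UMIs of the 2 such RC barcodes, whose interval (0.631 to 80.6%) includes the SAA value. Of the 23, 22 held at least 3 UMIs of the T and NK cell list. The 39 retained SAA barcodes with at least 3 UMIs of that list other than Nkg7 had a share of 64.5% (193 of 299 UMIs, 58.8 to 70.0%). The group was set after the data had been seen.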

How the results depend on the processing

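With 1 library per condition, no replicate could be left out. No paired analysis was possible because the result comes from no test and each group has 1 library. The share, and the sums of Psmb8 to Psmb10, kept their direction under all alternatives run, at 21.9 to 23.5 points and log2 ratios of 1.68 to 1.86 in monocyte-like cells and at 30.7 to 39.7 points and 2.07 to 2.31 in granulocyte-like cells. In granulocyte-like cells the difference in share moved to 37.1 points at 2600 UMIs per cell and to 39.7 in non-cycling cells, and the Psmb5 to Psmb7 sum reversed to -0.049 and -0.62. The cause of these shifts was not tested. With granulocyte-like cells weighted equally, the difference in share was 31.0 points and the log2 ratio of that sum was 0.220. The log2 ratio of Psme1 and Psme2 moved to 1.49 in non-cycling monocyte-like cells and, in granulocyte-like cells, to 1.37 in non-cycling cells and 2.02 without barcodes with T or NK list UMIs. That exclusion drops 96 RC granulocyte-like cells, nearly all for Nkg7, and with Nkg7 not counted, an alternative added after seeing the data, the value was 1.735. The Psmc and Psmd sum moved in monocyte-like cells to 0.44 with at least 1500 genes and at most 10% mitochondrial UMIs, 0.34 in cycling and 0.66 in non-cycling cells (both added after seeing the data) and 0.645 with TMM, and in granulocyte-like cells to 0.59 without T or NK list barcodes and 0.03 in non-cycling cells. Members at least 1.5-fold higher numbered 11 of 41 with enough UMIs in cycling monocyte-like and 4 of 10 in non-cycling granulocyte-like cells, against 20 and 16 of 42. Members at least 1.5-fold lower numbered 1 in cycling cells and with cells weighted equally in monocyte-like cells. In granulocyte-like cells they numbered 0 without T or NK list barcodes, in cycling cells, at 2600 UMIs and with at least 200 UMIs, and 2 in non-cycling cells and with no minimum. The shares of all genes past 1.5-fold were not computed under the alternatives, so these counts of members have no background beside them. Of 879 alternative values for single members 834 stayed within counting error and 45 moved, and 0 called values reversed. The 834 include the values under the limit of 25% mitochondrial UMIs, which dropped no barcode and so could not move. Members with too few UMIs under an alternative were not counted there. In non-cycling granulocyte-like cells only 10 members had enough. Those that moved there were Psma2, Psma6, Psma7, Psmb3, Psmb4, Psmb5, Psme1 and Psme2. With 3 counts taken as the limit, 0 UMIs allow up to 2.21 and 1.48 CPM in RC and SAA monocyte-like cells and 1.21 and 0.905 in granulocyte-like cells, and a scarce member such as Psmd10, with 46 and 54 UMIs in monocyte-like cells, has an interval as wide as 0.521 to 1.19.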
